A study of Mus musculus with 10 samples.

Results

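Zbtb32, Bhlhe40 and Bhlhe41 encode DNA-binding repressors, and their transcript levels were followed in splenic B cells of C57BL/6 mice sorted by secretion of interleukin 10 (IL-10). The members were all probes of the non-normalized bead table whose gene name, ignoring case, was one of these symbols or the older names Bhlhb2 and Bhlhb3. This gave 3 genes among 30854 distinct names and 4 probes among 45281, with 2 probes for Zbtb32 and 1 each for Bhlhe40 and Bhlhe41. Another 3 probes carry the name STRA13, which RefSeq lists as a synonym of Laptm5, Bhlhe40 and Cenpx, and were not counted as members. The genes were chosen by their intensities in these arrays and the differences between the groups, so their levels and differences are given as a description, with no test.

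The samples were hybridised to Illumina MouseWG-6 beadchips on 2 slides. IL-10+ cells filled 5 arrays, IL-10- cells 3 and total B cells the other 2. The fractions were separated with an IL-10 secretion assay and flow sorting. All samples share a protocol of 5 h with LPS, a Toll-like receptor 4 ligand, at 10 µg/ml, the phorbol ester PMA at 50 ng/ml and the calcium ionophore ionomycin at 500 ng/ml. That the total B samples also received it rests on this common wording alone. Fractions of one replicate number lay on one slide: slide 1 held IL-10+ replicates 1, 2 and 3 and IL-10- replicates 2 and 3. Slide 2 held IL-10+ replicates 4 and 5, IL-10- replicate 5 and both total B arrays. The labels do not say whether replicates are separate animals, so errors and p-values measure the spread between these arrays, which may be technical. Each array detected 13910 to 15610 probes, with 14410 to 15610 in IL-10+, 13910 to 14313 in IL-10- and 14389 and 14987 in total B arrays. Every IL-10- array thus detected fewer probes than any other array. The lowest detected log2 level was 5.67 to 5.78 in IL-10- arrays and 5.39 to 5.65 in the others. Statements of detection in IL-10- cells carry this limit. The level of Il10 itself followed the labels, with a log2 intensity of 13.18 ± 0.28 (SD, n = 5) in IL-10+, 7.75 ± 0.19 (n = 3) in IL-10- and 10.26 ± 0.53 (n = 2) in total B cells.

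Zbtb32 belongs to the BTB zinc finger family, whose BTB domain pairs the proteins and recruits corepressor complexes while the zinc fingers read DNA. In mice it is induced in activated lymphocytes, restrains recall responses of memory B cells, can act with Blimp-1 (gene Prdm1) to repress Ciita, the master activator of MHC class II genes, and was first described as a repressor of GATA factors in T cells. Bhlhe40 and Bhlhe41 are basic helix-loop-helix proteins with an Orange domain, relatives of the HES and HEY repressors. Both bind the E-box CACGTG, dampen the circadian activators Clock and Arntl, and repress transcription. In mouse T cells and myeloid cells Bhlhe40 is a repressor of Il10, and Bhlhe41, together with Bhlhe40, supports the self-renewal of mouse B-1a cells, innate-like B cells known as a source of IL-10.

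In RefSeq annotation of GRCm38.p6, Zbtb32 lies at chr7:30589680-30602819, Bhlhe40 at chr6:108660629-108666925 and Bhlhe41 at chr6:145858243-145865420. The probes carry no stated build, so these positions belong to the genes and not to the probes. Promoter sequences from RefSeq are shown for Zbtb32, the gene with the largest differences, and for Bhlhe41, which carries the motif of its own protein family. The promoter sequences at hand held no entry for Bhlhe40, so its promoter was not searched. Each window searched held the 250 bases upstream of an annotated start, minus strand, written 5′ to 3′, and for Bhlhe41 a 60-base excerpt around the motif is shown. For Zbtb32 the table gives a pair of starts, both inside the span of the gene.
Zbtb32, chr7:30598910-30599159: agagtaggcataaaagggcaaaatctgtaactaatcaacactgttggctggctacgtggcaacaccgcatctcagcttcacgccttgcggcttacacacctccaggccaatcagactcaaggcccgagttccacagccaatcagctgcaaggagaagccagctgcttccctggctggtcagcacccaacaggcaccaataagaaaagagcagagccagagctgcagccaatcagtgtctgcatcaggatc
Zbtb32, chr7:30592943-30593192: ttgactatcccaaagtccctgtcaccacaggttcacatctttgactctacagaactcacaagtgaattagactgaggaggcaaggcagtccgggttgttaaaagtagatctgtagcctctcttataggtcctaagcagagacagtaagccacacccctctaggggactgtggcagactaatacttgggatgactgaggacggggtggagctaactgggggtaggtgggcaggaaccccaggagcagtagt
Bhlhe41, chr6:145865541-145865600: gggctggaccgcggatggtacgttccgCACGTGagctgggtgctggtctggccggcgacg
The capitals in the stretch of Bhlhe41 mark the E-box CACGTG, whose first base lies 153 bases upstream of the start. Windows were searched on both strands for CACGTG, for the AP-1 motif TGANTCA and for the cyclic AMP response element TGACGTCA, patterns that read the same on both strands and were counted separately. The Bhlhe41 window held 1 CACGTG and neither of the other motifs, and these letters were not found in either Zbtb32 window. Among 32851 windows of this length, 6.02% held CACGTG, 6.75% held TGANTCA and 1.55% held TGACGTCA. A match is a description of the letters and not of binding.

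Zbtb32 was bright in every IL-10+ array. Probe 3520142, the brighter of its probes, read 13200, 9010.5, 8054.2, 12904 and 12227.4 intensity units before normalization in IL-10+ replicates 1 to 5. It read 751.4, 1074.5 and 1842.5 units in IL-10- replicates 2, 3 and 5. It read 650.8 and 640.7 units in total B replicates 1 and 2. All 5 IL-10+ arrays lay above all other arrays, the IL-10- arrays came next, and total B cells were lowest.

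After background correction and quantile normalization the same probe stood at log2 levels of 13.36, 13.22, 13.00, 12.99 and 13.34 in IL-10+ replicates 1 to 5, a mean of 13.18 ± 0.18 (SD, n = 5). The IL-10- levels were 10.42, 10.67 and 10.55, a mean of 10.55 ± 0.12 (n = 3). The total B levels were 8.85 and 9.45, a mean of 9.15 ± 0.42 (n = 2). The order was IL-10+, then IL-10-, then total B cells, and no neighbouring groups overlapped, with gaps of 2.33 and 0.97 on the log2 scale.

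The log2 difference of IL-10+ from IL-10- cells at this probe was 2.64 ± 0.16 (SE), or 6.22-fold. That was rank 61 by signed difference among the 11185 genes measured. From total B cells it was 4.03 ± 0.19, or 16.3-fold, which was rank 3. IL-10- cells stood 1.39 ± 0.21 above total B cells, or 2.63-fold, at rank 171. Among all genes, arrays of the compared groups did not overlap for 24.5% between IL-10+ and IL-10- (11.6% higher, 12.9% lower in IL-10+). The share was 43.1% between IL-10+ and total B cells (21.4% higher, 21.7% lower) and 42.7% between IL-10- and total B cells (21.8% higher, 20.8% lower). These are the comparisons that chose the gene, so nothing is read from the ranks or from the lack of overlap. In bulk RNA, fewer cells expressing a gene and less of its RNA per cell cannot be told apart.

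The difference held in each same-numbered pair. At probe 3520142 the normalized ratio of IL-10+ to IL-10- was 6.96, 5.04 and 6.92 in replicates 2, 3 and 5, and the ratio of the raw intensities was 12.0, 7.50 and 6.64. Within slide 1 the mean log2 difference was 2.65 and within slide 2 it was 2.62. On slide 2, which held all total B arrays, the difference from total B cells was 4.02 for IL-10+ and 1.40 for IL-10- cells. The IL-10- difference from total B cells depended on which total B array was used, at 1.69 without replicate 2 and 1.095 without replicate 1.

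The second Zbtb32 probe, 360142, was dimmer and ordered the groups in the same way. It read 1510.8, 836, 839.3, 1293.6 and 1235.6 intensity units in IL-10+ replicates 1 to 5 and 170.1, 188.3 and 273.6 units in the IL-10- arrays. It read 163.1 and 138.7 units in total B cells, where it was not detected on either array at the threshold of a detection p under 0.01. Its normalized level was 9.73 ± 0.27 (SD, n = 5) in IL-10+, 7.02 ± 0.20 (n = 3) in IL-10- and 5.30 ± 0.20 (n = 2) in total B cells. IL-10+ arrays again lay above every IL-10- array, with a gap of 2.26.

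At probe 360142 the log2 difference between IL-10+ and IL-10- cells was 2.71 ± 0.18 (SE), or 6.55-fold, close to that of the brighter probe. The pairs gave 2.61, 2.73 and 2.64. Because total B cells were below detection, the level of IL-10+ cells is given as at least 17.7-fold higher and that of IL-10- cells as at least 2.70-fold higher than total B cells. Such a bound sets the bright group's mean against, per array, the higher of the lowest detected signal and the probe's own signal. The bounds hold under the background correction used: without any correction the measured log2 differences were 2.60 and 0.649, and with normexp and an offset of 50 they were 3.27 and 0.978, all smaller than the bounds. The probes share a gene, so they are a repeated reading of the same arrays and not replicates.

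**Figure D1:**
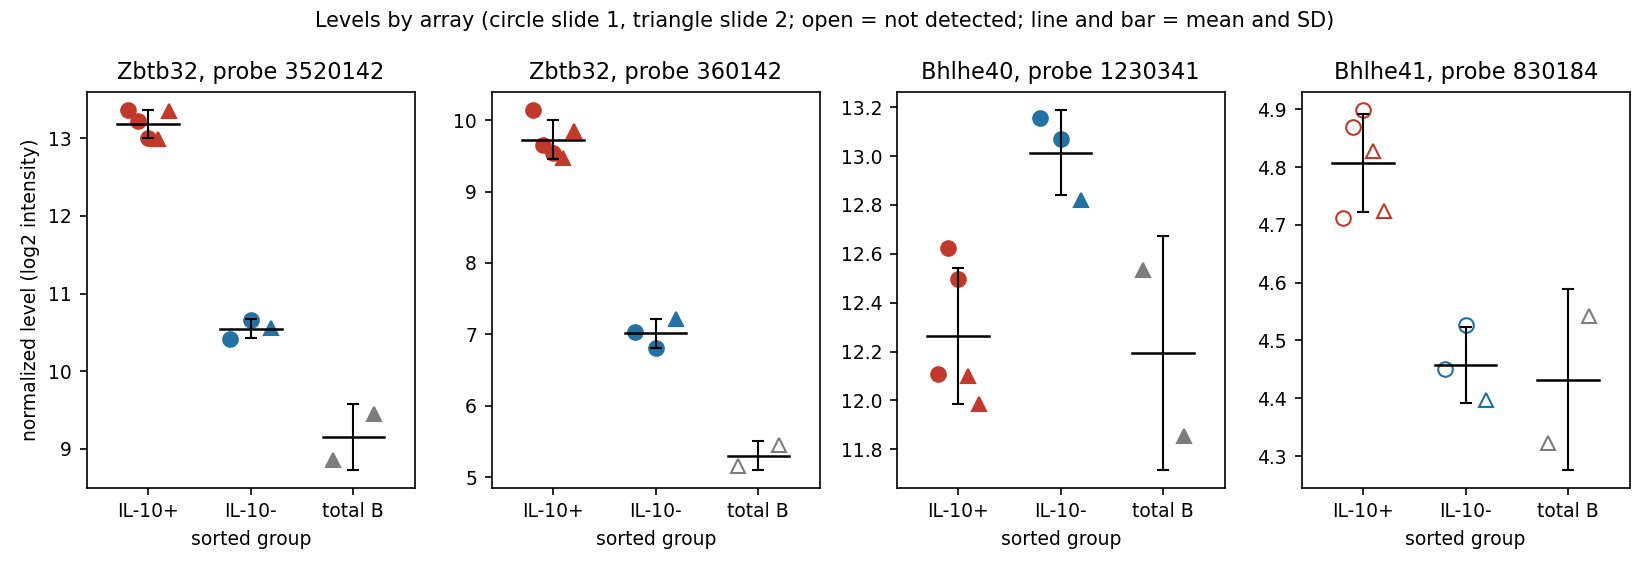
Normalized log2 intensity of each member probe in the 5 IL-10+, 3 IL-10- and 2 total B arrays. Each panel has its own vertical range. Circles are slide 1, triangles slide 2, open symbols arrays where the probe was not detected, and line and bar the mean and SD. Both Zbtb32 probes step down from IL-10+ to IL-10- to total B cells, Bhlhe40 is highest in IL-10-, and every Bhlhe41 symbol is open.

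Bhlhe40 was bright in all 10 arrays and differed between the groups far less than Zbtb32 did. Its probe 1230341 read 5633, 5940.6, 5682.8, 7185.7 and 4928.4 intensity units in IL-10+ replicates 1 to 5. It read 4888.2, 5691.2 and 8344.1 units in IL-10- replicates 2, 3 and 5. It read 6609.3 and 2871.7 units in total B replicates 1 and 2. Before normalization all 3 groups overlapped, and the total B arrays were more than a factor of 1.5 apart.

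After normalization Bhlhe40 stood at log2 levels of 12.11, 12.62, 12.50, 12.10 and 11.98 in IL-10+ cells, a mean of 12.26 ± 0.28 (SD, n = 5). The IL-10- levels were 13.15, 13.07 and 12.82, a mean of 13.01 ± 0.17 (n = 3). The total B levels were 12.53 and 11.86, a mean of 12.20 ± 0.48 (n = 2). IL-10- cells were highest and did not overlap the other groups, whereas IL-10+ and total B cells overlapped and were not ordered beyond their spread. Such a lack of overlap was common. Of all genes, 12.9% were lower without overlap in IL-10+ than in IL-10- cells. In IL-10- against total B cells, 21.8% were higher without overlap.

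IL-10+ cells were 0.75 ± 0.20 (SE) below IL-10- cells on the log2 scale, so that Bhlhe40 was 1.68-fold higher in IL-10-, with a gap of 0.19 between the groups. The pairs gave -0.53, -0.57 and -0.84, slide 1 gave -0.70 and slide 2 gave -0.78. IL-10- cells were 0.82 ± 0.25 above total B cells, or 1.76-fold, and this was 0.48 without total B replicate 2 and 1.16 without total B replicate 1. The difference of IL-10+ from total B cells was 0.07 ± 0.23, and it changed sign with the array left out, at 0.41 without total B replicate 1 and -0.27 without total B replicate 2.

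The difference of Bhlhe40 between the sorted fractions rested on the normalization. The raw ratio of IL-10+ to IL-10- was 1.22, 0.999 and 0.591 in replicates 2, 3 and 5. As a multiple of the median intensity of its array, the probe lay at 32.2 to 43.9 in IL-10+, 40.0 to 55.3 in IL-10- and 23.4 to 44.0 in total B arrays, and these ranges overlapped. With arrays scaled to a common median over all probes in place of quantiles, the difference between IL-10+ and IL-10- cells was -0.26. That scaling put the median of all tested genes at 0.48 for this comparison, and Bhlhe40 lay 0.74 below it, close to its place under quantile normalization. For the comparisons of IL-10+ and of IL-10- with total B cells, the same scaling put the median gene at 0.231 and at -0.265. Relative to those medians, Zbtb32 stood at 2.73, 4.04 and 1.33 in the 3 comparisons, at its brighter probe.

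**Figure D2:**
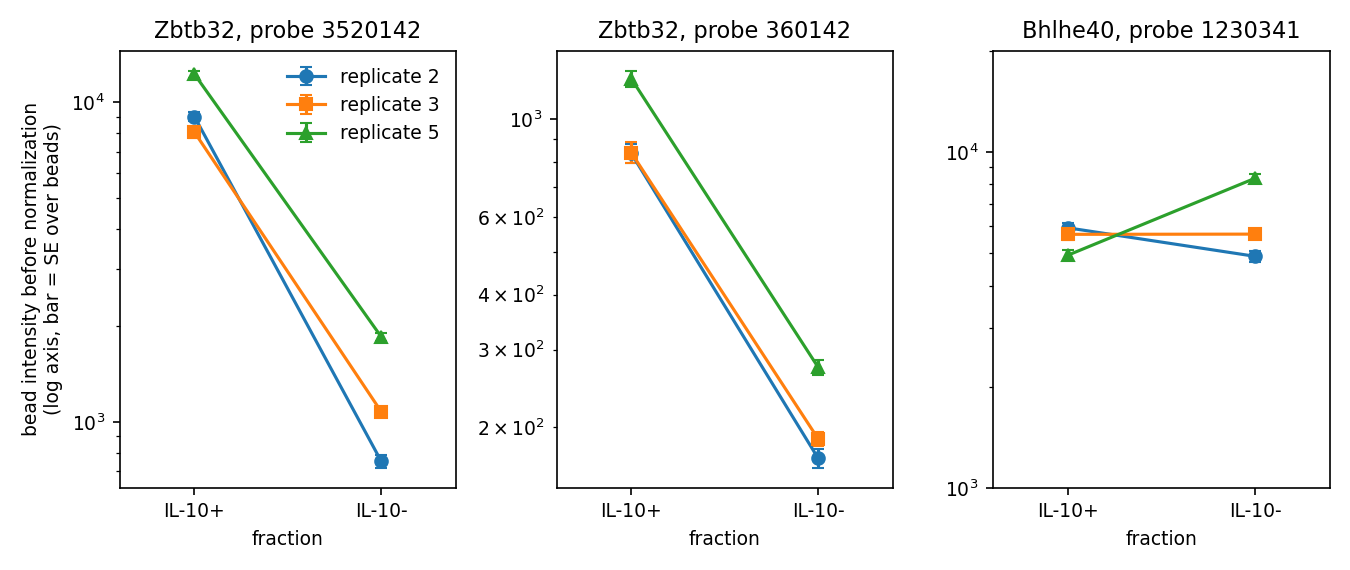
Bead intensity before normalization, on log axes, for IL-10+ and IL-10- arrays of replicates 2, 3 and 5, with bars for the SE over beads. Each line joins arrays of one replicate number. Both Zbtb32 probes fall in every pair, by a raw ratio of 4.46 to 12.0, while the Bhlhe40 lines cross, with raw ratios of 1.22, 0.999 and 0.591.

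Bhlhe41 was not detected on any of the 10 arrays. Its probe 830184 read 156.2, 137.2, 152.8, 165.6 and 149.6 intensity units in IL-10+ replicates 1 to 5. It read 111, 131.8 and 131.3 units in the IL-10- arrays and 120.9 and 113.9 units in the total B arrays. For comparison, the lowest signal of any probe lay between 89.9 and 119.6 units per array. The detection score, which rises with signal and would need to pass 0.99, was 0.745 to 0.903 in IL-10+, 0.100 to 0.405 in IL-10- and 0.00855 and 0.463 in total B arrays. All IL-10+ scores lay above all others and none passed, so the probe was not well above background in any group, was left out of the fit and is given no fold. A single probe below the detection threshold does not show that the transcript was absent.

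Total B cells lay below both sorted fractions for Zbtb32. On the linear scale their mean was 38.8% of the IL-10- mean at probe 3520142, and probe 360142 was not detected in them. For Bhlhe40 the total B mean was 96.6% of the IL-10+ mean, the lower of the fractions, which is within the spread of the arrays. Il10 differed from both, with total B cells between the fractions. A mean of total B cells outside both fractions was common: over all 11185 genes, 37% lay below both fractions, 35.3% above both and 27.7% between them.

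The 5 genes whose levels ran most like those of Zbtb32 were found by the root mean square distance of centred log2 levels over the 10 arrays, among 8662 candidates. They were Lysmd2 at 0.296, Rab11fip4 at 0.415, Tubb6 at 0.439, Ctla4 at 0.442 and Il5ra at 0.444, whereas Zbtb32 itself varied by 1.68 around its own mean. Lysmd2, a LysM domain protein, had levels of 9.38 ± 0.09 (SD, n = 5) in IL-10+, 6.79 ± 0.02 (n = 3) in IL-10- and 5.91 ± 0.12 (n = 2) in total B cells. Rab11fip4 is an effector of the Rab11 GTPase, Tubb6 a β-tubulin, Ctla4 an inhibitory receptor and Il5ra the receptor chain for interleukin 5. Among them Tubb6 had the largest difference between IL-10+ and IL-10- cells, 3.23, and Il5ra the smallest, 1.95.

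Among the genes nearest to Bhlhe40 were Arih2 at 0.147, Cux1 at 0.185, Cybb at 0.186 and Oxt at 0.189, against 0.431 for the variation of Bhlhe40 around its own mean. Arih2 is an E3 ubiquitin ligase, Cux1 a homeodomain transcription factor, Cybb a subunit of the phagocyte NADPH oxidase and Oxt encodes oxytocin. Oxt lay near the floor, with means of 5.22 in IL-10+, 5.86 in IL-10- and 5.36 in total B cells. The lowest detected level per array was 5.39 to 5.78. Arih2 had levels of 11.87 ± 0.24 (n = 5) in IL-10+, 12.37 ± 0.24 (n = 3) in IL-10- and 11.75 ± 0.34 (n = 2) in total B cells. These 4 had their highest group mean in IL-10- cells, which the choice by likeness fixes. These distances rest on arrays that share slides and a normalization, and nothing about shared function is drawn from them.

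**Figure D3:**
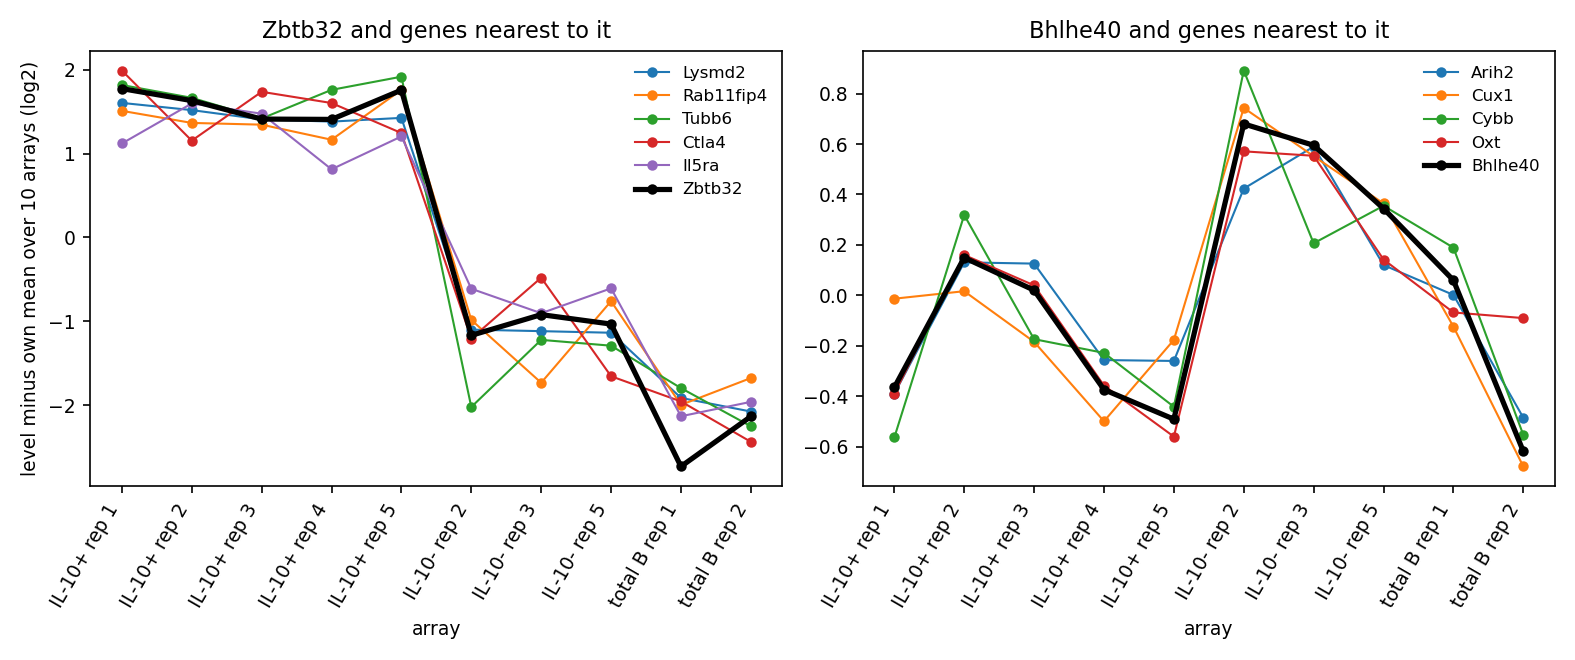
Log2 level minus the gene's own mean over 10 arrays, for Zbtb32 (left, black) and Bhlhe40 (right, black) with 5 genes nearest to Zbtb32 and 4 near to Bhlhe40 in colour. The horizontal axis lists the arrays, and lines join arrays for the eye and carry no order. The Zbtb32 group is high in all 5 IL-10+ arrays, and the Bhlhe40 group has its highest mean in the IL-10- arrays, with overlap between single arrays of some genes.

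Genes that belong to the same families and pathways were compared in a limma fit over all 11185 genes, with Benjamini-Hochberg adjustment over all of them and a threshold of 0.05. Of all genes, 18.1% passed between IL-10+ and IL-10- cells, with 9.12% higher in IL-10+ and 9.01% lower, and the median gene stood at -0.03. Of 164 genes in 7 lists, 112 could be tested, and 39 passed, 18 higher and 21 lower. B-1 cell genes gave 14 of these 18 higher calls, and 13 of the 23 higher calls for IL-10+ against total B cells. That list was chosen with earlier results of these data known, so the pooled counts are not an independent finding. With the replicate number as a block 31 list genes passed, 18 higher and 13 lower. Under median scaling 30 passed and all were higher, while over all genes 2440 passed as higher and 78 as lower, against 1020 and 1008 under quantile normalization. All 21 list genes that were lower kept their place below the median gene under that scaling. Setting genes against the median gene removes the shift between the scalings, so this was largely fixed in advance. Of the 21 genes, 19 also stayed below 0. The falls given next are therefore relative to the other genes of the array. Against total B cells 38 list genes passed for IL-10+ (23 higher, 15 lower) and 19 for IL-10- cells (13 higher, 6 lower). Without total B replicate 1 these counts were 25 and 4, without replicate 2 they were 27 and 13, and under median scaling 22 higher with 5 lower and 0 higher with 7 lower.

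Other BTB zinc finger genes did not follow Zbtb32 as a group. Of 29 tested, 2 were higher and 5 lower in IL-10+ than in IL-10- cells, with a median difference of -0.10, beside 9.12% and 9.01% of all genes, and under median scaling 6 were higher and none lower. Bcl6, the repressor that directs germinal centre B cells, fell by 1.04 ± 0.19 (SE; adjusted p = 0.00433). Zbtb24, mutated in a human immunodeficiency syndrome, fell by 0.61 ± 0.12 (adjusted p = 0.00764, and 0.0669 with the replicate block), but stood at 0.02 under median scaling. Zbtb40, detected on 4 of 5 IL-10+ arrays, fell by 0.85 ± 0.19 (adjusted p = 0.0114, and 0.06 with the block). Zbtb38, which binds methylated DNA, rose by 1.12 ± 0.26 (adjusted p = 0.0156), and its adjusted p was 0.0532 without IL-10- replicate 2. With the block, 2 genes of the family were higher and 1 was lower.

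Against total B cells, 3 of the 29 BTB zinc finger genes were higher and 6 lower in IL-10+ cells, with a median of -0.27, beside 22.4% of all genes passing, 12% higher and 10.4% lower. Zbtb26 fell by 2.03 ± 0.25 (adjusted p = 0.000394). Zbtb20, which supports plasma cell survival in mice, rose by 1.92 ± 0.34 (adjusted p = 0.00305). Zbtb21 rose by 0.71 ± 0.16 (adjusted p = 0.00956), yet it was at -0.07 when all its probes were averaged, and its adjusted p was 0.117 without total B replicate 2. The share was 13.6% between IL-10- and total B cells, 7.51% higher and 6.04% lower. Of the family, Zbtb26 alone passed there, at -1.66 ± 0.27 in IL-10- cells (adjusted p = 0.00487, and 0.0513 without total B replicate 1). The 9 family calls for IL-10+ became 3 without either total B array and 3 under median scaling, 2 higher and 1 lower.

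Among the HES and HEY relatives of the Bhlhe genes, 3 of 10 could be tested, and none was lower than in total B cells, where 2 were higher in IL-10+ and all 3 in IL-10- cells. Under median scaling the 2 still passed and the 3 did not. Hes6 was higher than in total B cells by 1.32 ± 0.14 in IL-10+ cells (adjusted p = 0.000202) and by 1.31 ± 0.15 in IL-10- cells (adjusted p = 0.0012). Hes1, a Notch target, was not detected in total B cells and was detected on 4 of 5 IL-10+ arrays. It was at least 1.34-fold higher in IL-10+ (adjusted p = 0.00408) and at least 1.73-fold higher in IL-10- cells (adjusted p = 0.00332). Hes5, another Notch target, was at least 1.37-fold higher in IL-10- than in total B cells (adjusted p = 0.0148, and 0.123 without total B replicate 1). Hes5 was detected on 1 of 5 IL-10+ arrays. Between the fractions it was lower in IL-10+ cells by 0.75 ± 0.21 (adjusted p = 0.031), a call lost without any of 4 of the 10 arrays and with the block (adjusted p = 0.0774). The call was also lost without background correction, with normexp and an offset of 50, and under median scaling. It was lost too without the probe filter and when probes were averaged. The comparisons with total B cells share the same 2 control arrays.

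E-box binding factors and the Id proteins, which lack a DNA-binding region and trap E proteins, mostly did not pass. Of 21 tested, 1 was higher and 4 lower in IL-10+ than in IL-10- cells, which is 23.8% beside 18.1% of all genes, with a median of 0.05, and under median scaling 5 were higher and none lower. Id2 rose by 1.06 ± 0.16 (adjusted p = 0.00227), whereas Id3 fell by 1.06 ± 0.19 (adjusted p = 0.00513). Id1 was not detected on any IL-10+ array and was at least 1.36-fold lower there (adjusted p = 0.0241, and up to 0.0676 in the 4 of 10 fits without 1 array that lost the call). Mlxip, a glucose-responsive partner of Mlx, fell by 0.71 ± 0.15 (adjusted p = 0.00966, and 0.0508 with the block).

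Against total B cells, 2 of these 21 genes were higher and 3 lower in IL-10+, and 2 were higher and 1 lower in IL-10-. Under median scaling 2 were higher and 3 lower in IL-10+, and none was higher and 3 were lower in IL-10-. Id2 was 1.40 ± 0.19 higher in IL-10+ cells (adjusted p = 0.000693), and Id3 was 1.13 ± 0.24 higher in IL-10- cells (adjusted p = 0.0154, and 0.119 without total B replicate 1). Myc, the growth-promoting partner of Max, was 1.65 ± 0.33 lower in IL-10+ cells (adjusted p = 0.00558, and 0.0519 without total B replicate 2). Mxd1, a repressor that competes for Max, was lower in IL-10+ by 1.71 ± 0.41 (adjusted p = 0.0131) and in IL-10- by 1.77 ± 0.44 (adjusted p = 0.0271). Without total B replicate 1 these adjusted p-values for Mxd1 were 0.167 and 0.217, and with slide as a block the latter was 0.0794.

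Circadian genes, which include known targets of Bhlhe40 and Bhlhe41, were lower or did not pass in IL-10+ cells under quantile normalization, whereas under median scaling 1 was higher and none lower. Of 11 tested, none was higher and 3 were lower than in IL-10- cells, with a median of -0.27, and 8 did not pass. The shares over all genes were 9.12% higher and 9.01% lower. Ciart, a circadian repressor, fell by 0.77 ± 0.12 (adjusted p = 0.00249). Per1, the period gene, fell by 1.25 ± 0.32 (adjusted p = 0.022, and 0.0882 without IL-10- replicate 2). Dbp, an output gene of the clock, fell by 0.62 ± 0.18 (adjusted p = 0.0365), a call lost without any of 6 of the 10 arrays and with the block (adjusted p = 0.0914). The activators did not pass, with Clock at 0.14 ± 0.14 and Arntl at -0.42 ± 0.24. Against total B cells, Ciart was 1.08 ± 0.14 lower (adjusted p = 0.000595) and Dbp 1.11 ± 0.21 lower in IL-10+ (adjusted p = 0.00383, and 0.0514 without total B replicate 2). Under median scaling neither passed, at adjusted p-values of 0.118 and 0.106. In IL-10- against total B cells, Csnk1e, a kinase of the period proteins, passed at 1.06 ± 0.27 lower (adjusted p = 0.0286, 0.237 without total B replicate 1 and 0.0615 with slide as a block).

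Corepressors that BTB and HES-type proteins recruit passed between IL-10+ and IL-10- cells about as often as all genes did, at 19% beside 18.1%. Of 21 tested, 4 were lower in IL-10+ and none higher, with a median of -0.28. Under median scaling 3 were higher and none lower. Tle1, a Groucho corepressor, fell by 1.39 ± 0.12 (adjusted p = 0.000101). The class IIa histone deacetylases Hdac4 and Hdac5 fell by 0.69 ± 0.14 (adjusted p = 0.00828, and 0.0564 with the block) and by 0.88 ± 0.21 (adjusted p = 0.0186, and 0.0731 without IL-10- replicate 2). Bcor, the corepressor of Bcl6, fell by 0.61 ± 0.18 (adjusted p = 0.0363), a call lost without any of 6 of the 10 arrays and with the block (adjusted p = 0.0911). With the block, 2 of the 4 passed.

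Compared with total B cells, 3 corepressors were higher and 2 lower in IL-10+, and 5 were higher and none lower in IL-10- cells, whereas under median scaling 2 and 0 were higher and none lower. Tle1 was 1.03 ± 0.14 lower in IL-10+ cells (adjusted p = 0.000751). Hdac7, a class IIa deacetylase, was 0.79 ± 0.16 higher in IL-10+ (adjusted p = 0.00656) and 1.16 ± 0.18 higher in IL-10- cells (adjusted p = 0.00377). Without total B replicate 1 its adjusted p-values were 0.0596 and 0.0346. Tle3 was 0.84 ± 0.18 higher in IL-10+ (adjusted p = 0.00896) and 1.07 ± 0.20 higher in IL-10- cells (adjusted p = 0.00898), and neither passed without total B replicate 1, at 0.102 and 0.0776.

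**Figure D4:**
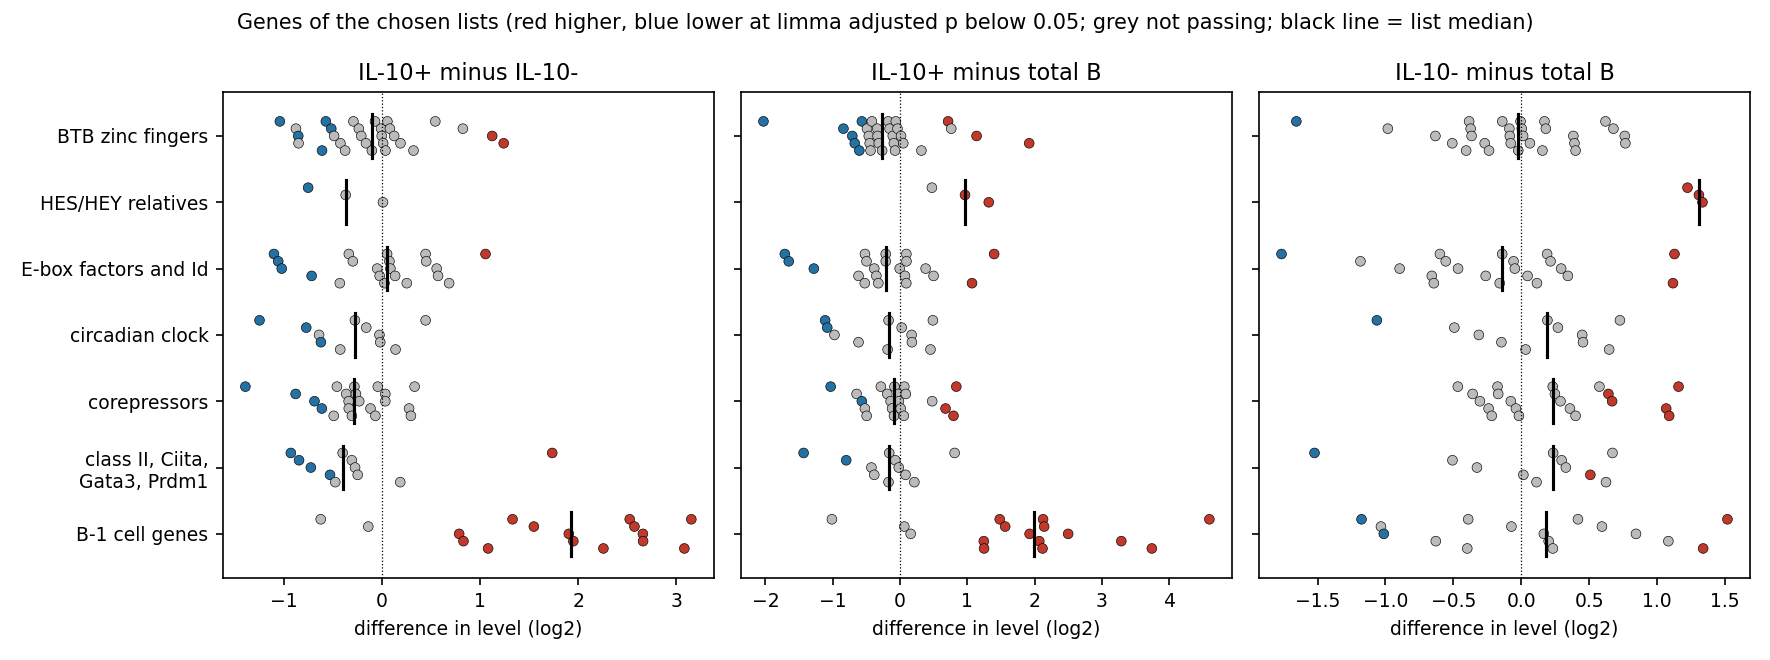
Log2 difference of each tested gene in the 7 lists for the 3 comparisons, with red for higher and blue for lower at a limma adjusted p below 0.05, grey for genes that did not pass and a black line for the list median. Most B-1 cell genes lie to the right of 0 in both comparisons of IL-10+ cells, with medians of 1.93 and 2.0. Their lowest values are -0.62 and -1.01. The other lists lie around 0 or below in IL-10+ against IL-10- cells.

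Ciita, which Zbtb32 and Blimp-1 repress in mouse B cells, and the class II genes that it activates were tested with Prdm1 itself. Of 11 tested genes of this list (class II genes, Ciita and Prdm1), 1 was higher and 4 lower in IL-10+ than in IL-10- cells. Their median was -0.40, and the shares over all genes were 9.12% higher and 9.01% lower. Ciita fell by 0.93 ± 0.17 (adjusted p = 0.00559), H2-DMb1 by 0.72 ± 0.13 (adjusted p = 0.00521) and H2-Ab1 by 0.53 ± 0.11 (adjusted p = 0.00828). Of these, H2-DMb1 encodes part of the peptide-loading chaperone and H2-Ab1 a chain of the class II molecule. Prdm1, not detected on any IL-10- array, was at least 2.02-fold higher in IL-10+ cells (adjusted p = 0.00696). Under median scaling Prdm1 passed and the 4 lower genes did not, with Ciita at -0.34.

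Ciita was also 1.43 ± 0.20 lower in IL-10+ than in total B cells (adjusted p = 0.000803). There 2 of the 11 genes passed, both lower, which is 18.2% beside 22.4% of all genes. Under median scaling 1 was higher and 1 lower. Besides Ciita, the gene that passed was H2-Ob, an inhibitor of peptide loading, at 0.80 ± 0.18 lower (adjusted p = 0.00991, and 0.138 without total B replicate 1). Between IL-10- and total B cells, H2-Ab1 was 0.51 ± 0.13 higher (adjusted p = 0.033, 0.157 without total B replicate 2 and 0.0848 with slide as a block), and Prdm1 was at least 1.74-fold lower (adjusted p = 0.0405, 0.316 without total B replicate 1 and 0.105 with slide as a block). Under median scaling Prdm1 passed there and H2-Ab1 did not. Gata3, the factor Zbtb32 was first known to oppose, did not pass the detection filter.

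Genes high in mouse B-1 cells were higher in IL-10+ cells for 14 of 16 tested against IL-10- cells and for 13 of 16 against total B cells. None passed as lower, and the medians were 1.93 and 2.0. Of all genes, 9.12% and 12% were higher in these comparisons. The list was chosen with earlier results of these data known, so its counts and p-values are not an independent finding. Anxa2, a membrane-binding annexin, rose by 2.66 ± 0.21 (adjusted p = 6.05e-05) and Cd9, a tetraspanin, by 2.57 ± 0.20 (adjusted p = 6.28e-05) over IL-10- cells. Fcrl5, a receptor of innate-like B cells, was at least 3.23-fold higher (adjusted p = 6.05e-05), and Il5ra was 1.95 ± 0.18 higher (adjusted p = 0.000116). Over total B cells S100a6, a calcium-binding protein, was at least 15.5-fold higher (adjusted p = 3.49e-05) and Ctla4 was 3.74 ± 0.31 higher (adjusted p = 5.9e-05). Between IL-10- and total B cells 2 of these genes were higher and 2 lower, and under median scaling none was higher and 1 lower, with Il5ra at least 1.56-fold higher (adjusted p = 0.00524, and 0.0508 without total B replicate 1) and Anxa2 at -1.18 ± 0.26 (adjusted p = 0.0169, and 0.149 without it). Cd5 was not analysed here, and Ctla4 and Il5ra are also among the genes nearest to Zbtb32.

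Markers of B cells and of other cell types were set beside these results, and their part in them was not tested. All 9 B cell markers on the array were detected, 5 were lower and none higher in IL-10+ than in IL-10- cells, and their summed linear level was 10910 to 13600 in IL-10+, 16920 to 19800 in IL-10- and 12280 to 14560 in total B arrays. Of the plasma cell markers 4 of 6 tested were higher in IL-10+ cells, among them Prdm1, and the sums were 17990 to 21930, 16140 to 19300 and 15420 to 18730 in the same order. Sdc1 and Tnfrsf17, which define plasma cells, were not detected on any array. Myeloid markers summed to 2691 to 4027, 962.9 to 1726 and 1024 to 1425, with 2 of 4 tested higher in IL-10+ than in IL-10- cells, and Csf1r, Cd14, Marco, Vcam1, Cd163, Fcgr1 and Mrc1 were never detected.

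T cell markers summed to 1155 to 1370, 1285 to 2192 and 2201 to 2239 in IL-10+, IL-10- and total B arrays. Of 5 tested, 2 were higher and 1 lower in IL-10+ than in IL-10- cells, and Cd3d, Cd3e, Cd4, Cd8a, Thy1 and Trac were never detected. Dendritic cell markers summed to 3179 to 5082, 5390 to 6934 and 6350 to 7527, with 1 of 4 tested lower in IL-10+ than in IL-10- cells, and Flt3, Xcr1, Clec9a, Batf3 and Itgax were never detected. Of the natural killer cell markers only 1, Prf1, was tested, so no sum over several genes is given. Its linear level was 1605 to 7517, 3365 to 7095 and 4152 to 5773. None of Ncr1, Klrb1c, Klre1, Klra1, Nkg7, Gzmb and Eomes was detected.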

How the data were processed

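Transcripts were measured on 10 beadchip arrays, grouped by sample titles. The deposited intensity table came from GenomeStudio 1.9.0 without normalization, per the file headers, together with the number of beads and their SD. Its deposited detection column is a score, and the detection p was taken as 1 minus it. No source used here says whether a background was subtracted first. A deposited table of log2 values, for which the submitters' processing notes name lumi, was not used in any comparison. The 40 other per-sample columns were not used.

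Intensities were background-corrected and quantile normalized in R 4.3.3 by the neqc function of limma 3.58.1 (offset 16). The filter asked for a detection p under 0.01 on 2 or more arrays and left 16496 of 45281 probes. The brightest probe stood for each of 11185 genes. Among 30854 gene names, 16223 were RefSeq symbols, 5706 were a synonym of a single gene, 117 were ambiguous and 8808 were unmatched, and these last kept the file's name. Groups were compared with lmFit and eBayes in one fit of all 10 arrays (7 residual degrees of freedom, 10.6 moderated), two-sided, and p-values were adjusted by Benjamini-Hochberg across all genes. The number of arrays limits the precision. Each member probe was read from 22 to 64 beads.

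The members and lists were chosen with earlier results of these data known. Named were all member probes, up to 4 passing genes per list and comparison by adjusted p, and the 5 genes nearest to each member, of which 1 is not reported here. Clock and Arntl were added after their values were seen, and Gata3 and Cd5 are named as not tested. For IL-10+ and IL-10- arrays of one number, deviations from the group means correlated at 0.348, 0.238 and 0.319 for replicates 2, 3 and 5. Among unlike numbers, number 4 of IL-10+ with number 5 of IL-10- reached 0.276, above the 0.238, and all others were at most 0.0644. Arrays of one number share a slide, as do those that gave 0.276, so on slide 2 the correlations cannot separate number from slide. The numbers in the titles were taken to pair the arrays for the same-numbered pairs and the replicate block, and this remains an assumption. The main fit used no pairing. Alternatives covered background correction, scaling, probe filter, averaging of probes, slide, replicate number and leaving out each array.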

Additional observations from a re-analysis of the deposited data

How the results depend on the processing

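Zbtb32 kept its direction in all 39 values for IL-10+ against IL-10-, all 37 for IL-10+ against total B and all 35 for IL-10- against total B, over both probes. Bhlhe40 kept its direction in 19 of 19 values between the fractions and 17 of 17 between IL-10- and total B, but in 14 of 18 between IL-10+ and total B. These counts include fits without an array of the group not compared, and fits that changed only the probe filter. Neither can move a member's difference, so those values were fixed in advance. Both genes were also chosen on these differences. Without background correction, Zbtb32 gave 3.77 against total B cells at the brighter probe, and 1.95, 2.60 and 0.649 at the dimmer probe for IL-10+ against IL-10-, IL-10+ against total B and IL-10- against total B cells. With normexp and an offset of 50 the dimmer probe gave 2.29, 3.27 and 0.978 in that order. Its values against total B cells are measured differences from a probe that was not detected there. Under median scaling the brighter probe gave 3.21, 4.28 and 1.06, the dimmer probe 3.28 between the fractions and 1.32 between IL-10- and total B, and Bhlhe40 -0.26 between the fractions and 0.37 between IL-10+ and total B. Within slide 2 the dimmer Zbtb32 probe gave 2.45 between the fractions.

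Leaving out 1 array at a time gave 2.57 to 2.70, 3.73 to 4.33 and 1.095 to 1.69 for the brighter Zbtb32 probe in the order IL-10+ against IL-10-, IL-10+ against total B and IL-10- against total B. For the dimmer one it gave 2.60 to 2.81 between the fractions. Bhlhe40 ranged from -0.85 to -0.68, from -0.27 to 0.41 and from 0.48 to 1.16 in the same order. List genes passing ranged from 30 to 40, from 25 to 42 and from 4 to 22, with the 4 reached without total B replicate 1.

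Between the fractions 39 list genes passed, against 23 list genes within slide 1 and 15 within slide 2, where fewer arrays were used. Against total B cells, 21 passed for IL-10+ with the replicate number as a block, although those numbers did not pair the arrays, and 7 passed for IL-10- under median scaling. With the block, 31 list genes passed between the fractions, and over all genes 1331 passed, against 2028 without it. Over all genes, calls between the fractions numbered 749 within slide 1, 617 within slide 2 and 1255 without IL-10- replicate 2. Calls for IL-10+ against total B cells, 2501, became 1314 under median scaling, 789 with the block, and 1015 and 1272 without total B replicate 1 and 2. Calls for IL-10- against total B cells, 1516, became 599, 398 and 506 under median scaling and without total B replicate 1 and 2. The cause was not tested.

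Of 1221 values of the 64 named list results under alternatives, 1026 kept direction and side of the threshold, 193 no longer passed and 2 turned. Those were Zbtb21 in IL-10+ against total B cells, at -0.069 with probes averaged, and Zbtb24 between the fractions, at 0.019 under median scaling. The authors' processed log2 table was not run as an alternative, because its identifiers and those of the intensity table are of different kinds and no pairing was found. No paired analysis was possible for IL-10- against total B cells because they share 1 replicate number.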
